A study of Mus musculus with 36 samples.

Results

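The chromatin around 5 genes of vessels and blood, Kdr, Cdh5, Tal1, Hba-a1 and Hba-a2, was described in mouse embryonic forelimbs from the peaks of H3K27 acetylation (H3K27ac) that lie near them. All peaks of 18 lists, 1 list per library, were taken where they overlapped 4 windows of the mm9 genome: chr5:76200000-76500000 for Kdr, chr8:106500000-106750000 for Cdh5, chr4:114600000-114850000 for Tal1, and chr11:32050000-32250000 for Hba-a1 and Hba-a2 together. They numbered 397 of the 732259 peaks in the 18 lists, with 78 in the Kdr window, 77 in the Cdh5 window, 77 in the Tal1 window and 165 in the Hba window. A consensus region is a stretch that 2 or more of these lists cover with peaks. The windows held 32 of the 63594 consensus regions of the genome.

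The study set forelimbs of mice lacking single limb enhancers beside wild-type (WT) forelimbs. Each library was a chromatin immunoprecipitation of H3K27ac, a histone mark of active promoters and enhancers, from pooled forelimbs of FVB strain embryos at embryonic day 11.5. There were 4 libraries of mm1179 KO, 2 each of hs72 KO, hs1262 KO, hs1467 KO, hs1586 KO and hs1603 KO, and 4 of WT, each KO line being named after the enhancer it lacks. The labels do not say how many embryos each pool held.

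The deposited lists carry tags in their names that the labels do not explain, and libraries that share a tag are called a set. Set 1 held mm1179 KO replicates 1 and 2 with WT replicates 1 and 2. Set 2 held mm1179 KO replicates 3 and 4, both hs72 KO libraries and WT replicates 3 and 4. Set 3 held replicate 1, and set 4 replicate 2, of hs1262 KO, hs1467 KO, hs1586 KO and hs1603 KO. Sets 3 and 4 held no WT library, so for these 4 lines genotype and set cannot be told apart against WT. The lists had 26550 to 58753 peaks that covered 62.6 to 166.0 Mb. Set 4 stood apart with 54375 to 58753 peaks per list, against 26550 to 32472 in set 3 and 30719 to 45267 in sets 1 and 2. It also had 3037 to 3629 peaks per list at a score of 3100, against 1 to 59 in set 3 and 289 to 1204 in sets 1 and 2. Read depth is unknown, so a missing peak says only that none was called.

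Blood vessels invade the limb bud early, and embryonic blood flows through them, so dissected forelimbs contain endothelial and red blood cells beside limb mesenchyme and skin. Kdr encodes the main receptor for vascular endothelial growth factor on endothelial cells, and Cdh5 encodes VE-cadherin, the adhesion protein of the junctions between them. Tal1 encodes a transcription factor needed to form blood and used again in red cell precursors, while Hba-a1 and Hba-a2 encode the alpha chains of haemoglobin. In a mixed tissue, fewer cells of a type and less acetylation per cell cannot be told apart, and peak calls do not count cells.

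The sequences before the start sites are shown because they bear on which gene a read could come from. Of the 5 genes, 4 matched an entry by symbol in a RefSeq promoter table for GRCm38.p6, and each line gives the 250 bases before the start, 5′ to 3′ on the strand of the gene. Capitals mark 2 motifs searched on both strands: GATAA, the core bound by GATA factors of red cells, and CCGGAA, a core bound by ETS factors, which many endothelial genes use. The table gives 2 starts for Tal1, of which the first is shown, and the bases before the second hold neither motif.
Kdr: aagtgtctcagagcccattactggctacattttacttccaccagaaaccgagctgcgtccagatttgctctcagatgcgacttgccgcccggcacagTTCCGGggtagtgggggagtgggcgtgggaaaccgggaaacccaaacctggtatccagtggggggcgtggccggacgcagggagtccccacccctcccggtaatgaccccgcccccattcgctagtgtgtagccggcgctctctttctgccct
Tal1: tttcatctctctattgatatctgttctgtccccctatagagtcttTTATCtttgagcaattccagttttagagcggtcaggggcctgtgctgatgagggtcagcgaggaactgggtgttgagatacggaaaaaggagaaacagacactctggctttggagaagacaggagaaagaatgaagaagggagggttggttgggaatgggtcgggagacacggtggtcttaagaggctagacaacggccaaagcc
Hba-a1: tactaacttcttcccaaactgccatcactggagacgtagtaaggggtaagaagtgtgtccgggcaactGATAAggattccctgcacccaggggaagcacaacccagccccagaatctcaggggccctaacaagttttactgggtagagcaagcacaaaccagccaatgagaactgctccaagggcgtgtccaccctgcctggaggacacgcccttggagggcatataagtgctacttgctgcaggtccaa
Hba-a2: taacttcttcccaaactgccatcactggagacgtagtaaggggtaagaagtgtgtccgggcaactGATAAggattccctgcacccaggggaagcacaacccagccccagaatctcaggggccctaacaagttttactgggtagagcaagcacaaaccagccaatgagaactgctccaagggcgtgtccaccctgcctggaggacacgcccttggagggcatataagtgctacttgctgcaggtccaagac
The capitals in Kdr are CCGGAA read on the other strand, and those in Tal1 are GATAA read on the other strand. Hba-a1 and Hba-a2 each hold GATAA as spelled. GATAA occurred in 22.6% and CCGGAA in 12.03% of 32851 promoters of the same length, so a match is a description and not a binding site. Hba-a1 and Hba-a2 share an unbroken run of 247 of the 250 bases. Reads from that run cannot be assigned to either gene. Both genes are described through the 1 window that was chosen for them together.

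Acetylation at the 4 windows was unlike in amount and in rank. Across the 18 lists the Hba window had the largest covered share, at a median of 13.1% of its length, and 91.7% of 250 kb tiles of the genome with a peak were covered less. The Cdh5 window was covered to 4.32%, the Tal1 window to 3.26% and the Kdr window to 2.32%, beside a median of 3.04% over these tiles. All 4 windows had a peak in every list. The 5273 tiles of that kind had a median of 5.20%, above the Cdh5, Tal1 and Kdr windows. Rank was read from the MACS score of the strongest peak, as a percentile within its own list. That percentile had a median of 96.6 in the Cdh5 window, 95.9 in the Tal1 window and 93.5 in the Hba window. It was 78.6 over all tiles with a peak and 87.8 over those with a peak in every list. In the Kdr window it was 56.6, and 31.0% of all tiles with a peak ranked lower. These are medians over the lists, and the lists of set 3 lay lower at Tal1 and Hba. In replicate 1 of hs1603 KO the Tal1 percentile was 37.6. In replicate 1 of hs1262 KO, hs1586 KO and hs1603 KO the Hba percentile was 66.2, 71.2 and 74.1. All of these lay below the median of 78.6 over all tiles with a peak. At Cdh5 every list lay above it. No order of expression can be read from these values, since the windows differ in length and hold other genes. In RefSeq order Kit precedes Kdr, Cmpk1 and Stil precede Tal1, and Cdh11 precedes Cdh5. The order gives no distances, so it does not show which of these genes lie in the windows. No mm9 annotation was used, so peaks are given by position and are not assigned to genes. Coverage and rank are those of the whole window and need not come from the gene it is named after.

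**Figure D1:**
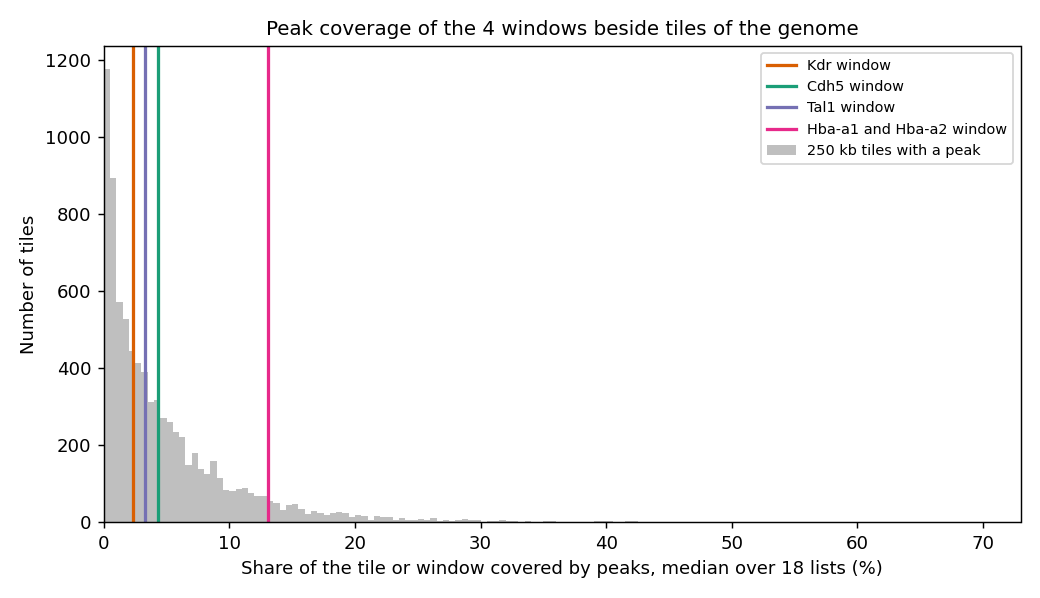
Share of each window covered by H3K27ac peaks, as the median over 18 lists (x axis, %), drawn as vertical lines over a histogram of 8121 genome tiles of 250 kb that hold a peak in at least 1 list (y axis, number of tiles). The Hba line stands at 13.1%, to the right of most tiles, while the Kdr, Tal1 and Cdh5 lines stand between 2.32% and 4.32%.

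The peaks differed in width as well. The median peak was 1730 bp wide in the Kdr window, where the widest reached 3220 bp. In the Cdh5 and Tal1 windows the median peaks were 2134 and 2365 bp wide, and the widest were 6225 and 5372 bp. The Hba window had a median of 2200 bp and the widest peak of the 4 windows, at 9696 bp. All peaks of the 18 lists had a median width of 2134 bp.

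Kdr had the most variable window. The covered length was 2.16, 1.19, 5.96 and 8.90 kb in mm1179 KO replicates 1 to 4, and 5.74 and 7.41 kb in hs72 KO. In replicates 2 and 1, hs1262 KO had 13.3 and 6.28 kb, hs1467 KO 18.4 and 10.7 kb, hs1586 KO 17.2 and 7.37 kb, and hs1603 KO 11.8 and 11.5 kb. The WT replicates 1 to 4 had 1.69, 4.07, 5.49 and 6.58 kb. The 4 libraries of set 1 were the lowest of the 18 in both genotypes, at 1.19 to 4.07 kb. The 4 libraries of set 4 were the highest, at 11.8 to 18.4 kb, with hs1603 KO replicate 1 next at 11.5 kb.

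The number of Kdr peaks per list ran between 1 and 10. Divided by the total length each list covers, which is called relative coverage here, the window still averaged 28.9 ± 12.7 bp per covered Mb in set 1, 67.6 ± 5.57 in set 2, 98.8 ± 28.9 in set 3 and 97.3 ± 17.9 in set 4 (SD, n = 4, 6, 4 and 4). The coefficient of variation of relative coverage over the 18 lists was 43.7%, and 97.4% of the 5273 tiles with a peak in every list varied less. The Kdr window held few peaks, so a single call moves this value.

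Of the 9 consensus regions in the Kdr window none was called in all 18 lists, where 16.5% of all consensus regions of the genome were. Regions are numbered by position within a window. The region at chr5:76274860-76277153, Kdr region 2, was called in 17, all but mm1179 KO replicate 1, and had the highest mean percentile of the window, at 50.9 ± 13.5 (SD, n = 17). Its percentiles were 14.3, 38.5 and 52.3 in the 3 mm1179 KO lists that called it, against 49.1, 50.2, 52.6 and 55.8 in WT. The widest region, at chr5:76229748-76233047, spanned 3300 bp and was called in 16 lists at a mean percentile of 40.1. The remaining 7 regions were called in 2 to 13 lists at mean percentiles of 12.8 to 30.9.

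Cdh5 was the steadiest of the windows. Its covered length was 8.37, 5.54, 11.7 and 14.8 kb in mm1179 KO, and 7.84 and 10.8 kb in hs72 KO. In replicates 2 and 1, hs1262 KO had 15.2 and 13.7 kb, hs1467 KO 15.7 and 11.996 kb, hs1586 KO 17.2 and 7.95 kb, and hs1603 KO 16.5 and 10.8 kb. The WT libraries had 7.05, 8.18, 9.27 and 8.27 kb. The 4 libraries of set 4 were the highest of the 18 here too, at 15.2 to 17.2 kb. Relative coverage varied by 16.9% over the 18 lists, and 26.8% of the tiles with a peak in every list varied less. Its strongest peak never ranked below percentile 89.1 in any list.

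That peak lay in the 9232 bp region chr8:106544109-106553340, Cdh5 region 2, which all 18 lists called at a mean percentile of 96.0 ± 2.36 (SD, n = 18). The values were 94.6, 94.5, 93.8 and 96.2 in mm1179 KO, between 96.1 and 99.97 in the 10 lists of the other KO lines, and 89.1, 94.2, 94.3 and 96.8 in WT. Another region, chr8:106618259-106621627, was also called in all 18 lists, at a mean percentile of 58.9 ± 15.0 (SD, n = 18) and a lowest value of 14.3 in mm1179 KO replicate 1. The other 4 regions of the window were called in 2 to 14 lists.

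The window of Tal1, the gene shared by blood and endothelium, had covered lengths of 8.47, 5.68, 8.65 and 10.3 kb in mm1179 KO. It had 5.32 and 7.28 kb in hs72 KO. In replicates 2 and 1, hs1262 KO had 18.01 and 7.86 kb, hs1467 KO 20.2 and 7.59 kb, hs1586 KO 17.4 and 5.95 kb, and hs1603 KO 17.3 and 4.93 kb. The WT libraries had 10.9, 7.16, 5.04 and 11.9 kb. The 4 libraries of set 4 were the highest of the 18, and none of the other 14 exceeded 11.9 kb.

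A pair of neighbouring regions carried the strongest peaks of the Tal1 window, and neither region was assigned to a gene. The region at chr4:114657769-114661029, Tal1 region 2, had a mean percentile of 94.4 ± 4.22 (SD, n = 17) and was missed only by hs1603 KO replicate 1. The region at chr4:114671216-114674061 was called in all 18 lists at 85.02 ± 16.003 (SD, n = 18). At this position the replicate 2 lists ranked 96.7, 93.9, 96.5 and 94.0, and the replicate 1 lists 64.2, 81.2, 57.3 and 37.6, in hs1262 KO, hs1467 KO, hs1586 KO and hs1603 KO in that order.

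The widest Tal1 region, chr4:114728663-114733438, was called in 11 lists and in none of set 3. It ranked 14.5, 18.3, 9.27 and 13.2 in mm1179 KO, against 54.8, 46.7 and 58.1 in the 3 WT lists that called it, and it had no peak in WT replicate 3. All 4 mm1179 KO peaks ranked below the 3 WT peaks. This contrast was seen afterwards among the values of 32 regions and was not tested. How many regions of the genome show such a contrast was not computed. The replicate 2 lists ranked 72.9, 64.7, 72.8 and 67.6 at this region in hs1262 KO, hs1467 KO, hs1586 KO and hs1603 KO in that order. Neither hs72 KO list called the region. Of the 11 lists that called it, 5 covered at least 50% of its length, so the calls may lie on different stretches.

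The Hba window holds the adult alpha globin genes, which stand in the RefSeq gene order of GRCm38.p6 after Nprl3 and the embryonic gene Hba-x, with Hbq1b between them, and before Hbq1a and Sh3pxd2b. Its covered length was 28.6, 20.9, 27.8 and 21.9 kb in mm1179 KO, and 16.3 and 28.6 kb in hs72 KO. In replicates 2 and 1, hs1262 KO had 48.7 and 21.4 kb, hs1467 KO 45.0 and 12.3 kb, hs1586 KO 46.4 and 17.2 kb, and hs1603 KO 42.4 and 15.1 kb. The WT libraries had 32.7, 24.5, 20.9 and 35.5 kb. As at Tal1, the libraries of set 4 were the highest, and the next was WT replicate 4.

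The number of Hba peaks per list ran between 3 and 13. Relative coverage averaged 351 ± 60.9 bp per covered Mb in set 1, 256 ± 62.3 in set 2, 181 ± 39.4 in set 3 and 293 ± 11.4 in set 4 (SD, n = 4, 6, 4 and 4). It varied by 28.1% over the 18 lists, and 73.5% of the tiles with a peak in every list varied less.

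**Figure D2:**
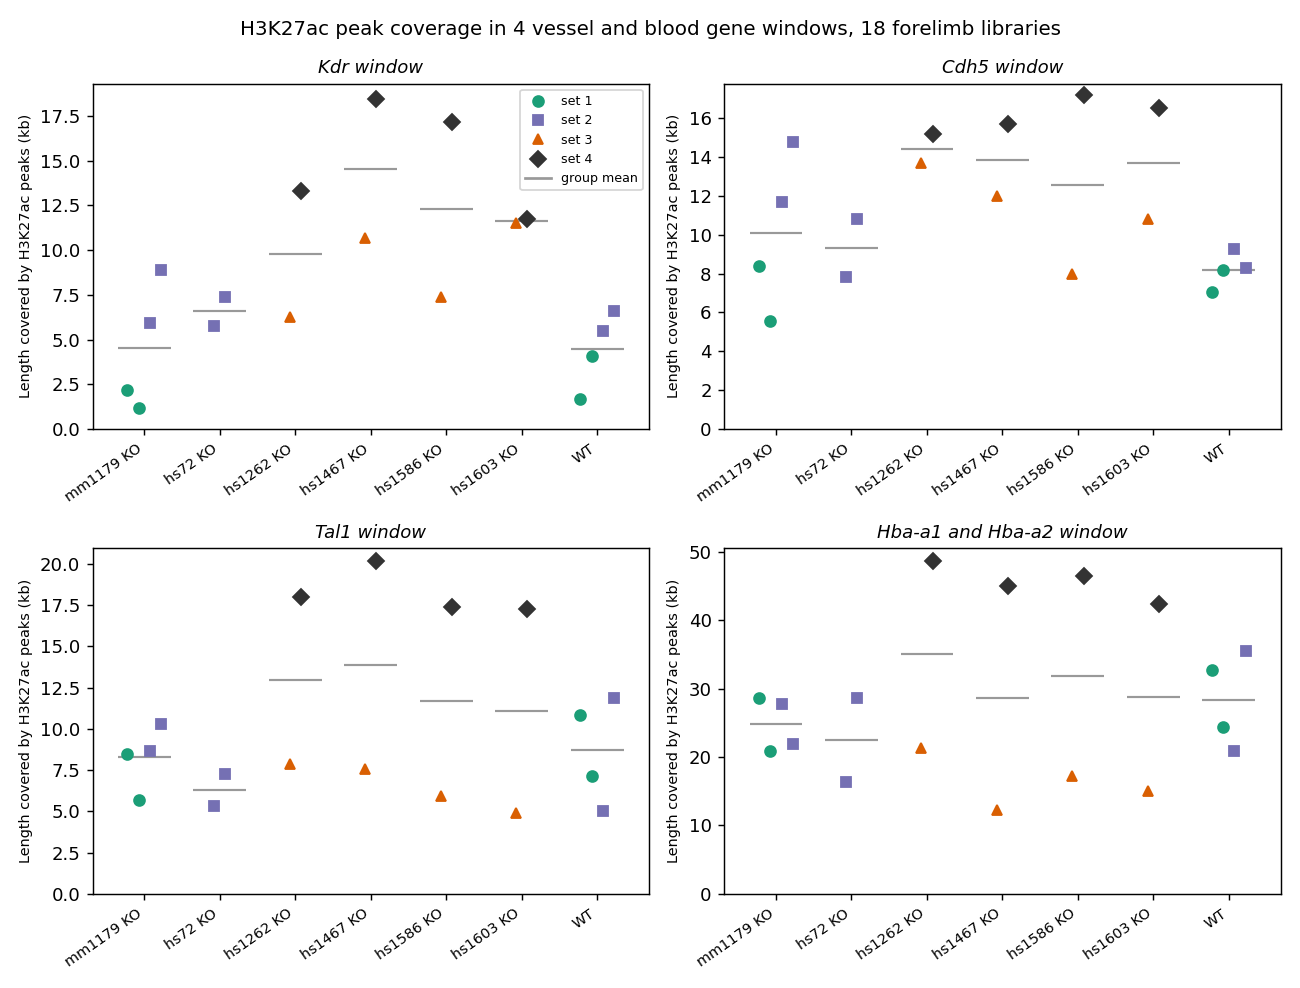
Length covered by H3K27ac peaks (y axis, kb) in each of the 4 windows, 1 panel per window and 1 point per library, by genotype (x axis), with point shape and colour for the set and grey bars for group means. In the Kdr window the 4 libraries of set 1 lie lowest, at 1.19 to 4.07 kb. In all 4 windows the 4 libraries of set 4 lie above all others, narrowly so in the Kdr window.

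Within the Hba window the calls fell into blocks. No consensus region lay in the 61510 bp between the region ending at chr11:32183335 and the one starting at chr11:32244846. Whether either globin gene lies in that gap was not determined, since no mm9 annotation was used. Such a gap was not particular to Hba, as the Kdr window had a longer one, of 87879 bp. The region at chr11:32140754-32153201 was the widest of all 4 windows, at 12448 bp, and was called in all 18 lists at a mean percentile of 49.5 ± 20.8 (SD, n = 18). The region at chr11:32161613-32170673, Hba region 6, had the highest mean percentile over the lists that called it, at 90.4 ± 2.97 (SD, n = 14), though its lists were not those of the other regions. It ranked 89.7, 87.2, 89.97 and 88.00 in mm1179 KO, and 87.3 and 88.3 in hs72 KO. It ranked 92.3 to 93.8 in the replicate 2 lists of the other KO lines, and 93.2, 90.7, 84.8 and 94.1 in WT. No list of set 3 called it.

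A few more regions were picked after their values were seen. The region at chr11:32119969-32128286, Hba region 3, was called in 17 lists at 89.6 ± 11.02 (SD, n = 17), among them 3 lists of set 3. Over the 14 lists that called both, region 3 averaged 94.1 ± 2.61 and region 6 averaged 90.4 ± 2.97 (SD, n = 14), and region 3 ranked higher in 12 of the 14, so their order turned without set 3. The other was the region at chr11:32244846-32251160, which runs past the end of the window and was called in 16 lists at 84.7 ± 16.6 (SD, n = 16). In these 2 regions the replicate 1 lists of set 3 ranked at most 80.5 and 61.8 where they had a peak. Each list of set 4 called all 9 Hba regions, while those of set 3 called 2 to 4 and those of sets 1 and 2 called 6 to 8. Over the genome the lists of set 4 called 78.7% to 86.3% of the consensus regions, and the lists of set 3 called 40.7% to 47.8%. The lists of sets 1 and 2 called 42.2% to 65.0%.

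**Figure D3:**
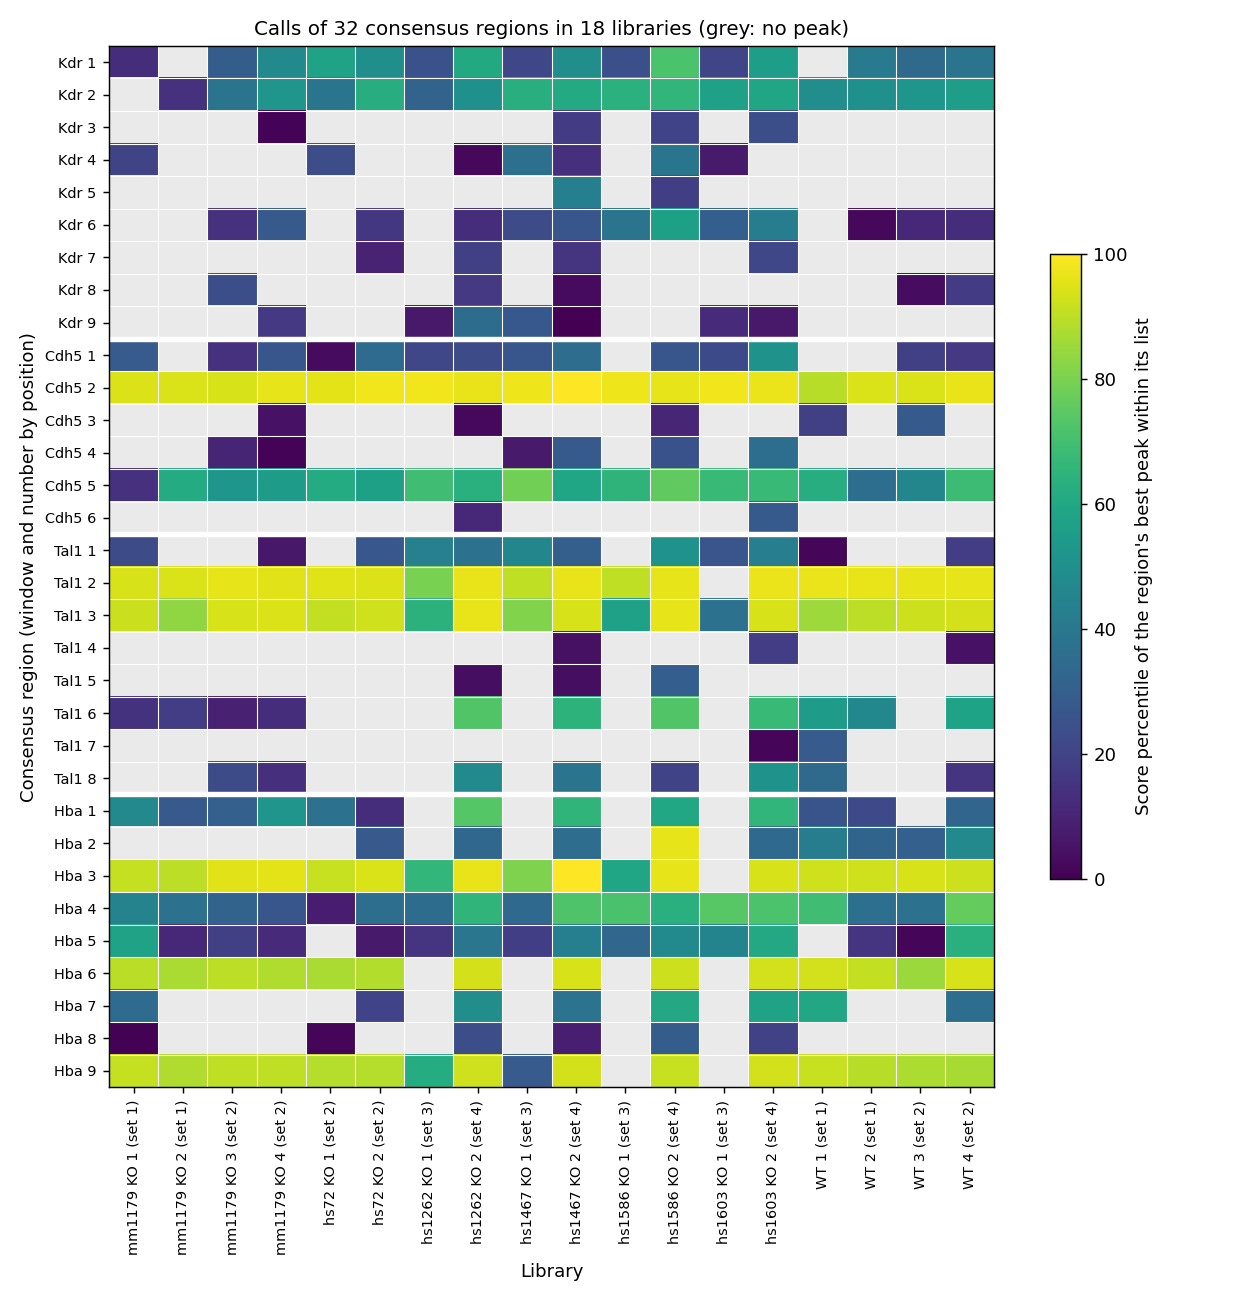
Calls of the 32 consensus regions (y axis, numbered by position in each window) in the 18 libraries (x axis, with the set), coloured by the score percentile of the strongest peak in the region within its list, with grey where no peak was called. Cdh5 region 2 and Tal1 region 2 rank above 80 wherever called, and Hba region 6 is grey in the 4 libraries of set 3 and ranks 84.8 or more in the other 14.

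Over the 4 windows the share of regions found in every list lay near that of the genome. In all, 4 of 32, or 12.5%, were called in all 18 lists, against 16.5% of all consensus regions. All 14 lists outside set 3 called 8 of 32, or 25%, against 29.9%. Of those 8, Hba region 6 alone was in no list of set 3, where 23.5% of such regions genome-wide were missing from all of set 3. The regions were called in a median of 10 lists, against 11 for all regions.

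The 2 replicates of hs1262 KO, hs1467 KO, hs1586 KO and hs1603 KO gave a view of the sets with genotype held. The covered length was greater in replicate 2 in all 4 lines at each window, which was also the case in 76.9% of the tiles with a peak in every list. Replicate 2 covered 15.2 ± 3.15 kb and replicate 1 covered 8.96 ± 2.53 kb in the Kdr window, and 16.1 ± 0.895 kb in replicate 2 and 11.1 ± 2.41 kb in replicate 1 of the Cdh5 window (SD, n = 4). In the Tal1 window the means were 18.2 ± 1.35 kb in replicate 2 and 6.58 ± 1.38 kb in replicate 1, and in the Hba window 45.6 ± 2.64 kb in replicate 2 and 16.5 ± 3.84 kb in replicate 1 (SD, n = 4). Each difference had an exact sign-flip permutation p of 0.125, two-sided, the smallest that 4 lines can give, and an adjusted p of 0.167 over 8 tests.

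Relative coverage, which allows for the length covered by each list, was also greater in replicate 2 at the Hba and Tal1 windows. In the Hba window it was 293, 277, 302 and 301 bp per covered Mb in replicate 2, against 229, 135, 193 and 168 in replicate 1, in the order hs1262 KO, hs1467 KO, hs1586 KO and hs1603 KO. In the Tal1 window it was 108.5, 124.4, 113.2 and 122.6 in replicate 2, against 83.9, 83.4, 66.5 and 55.0 in replicate 1. Replicate 2 was higher in 4 of 4 lines at both windows, by means of 112 and 45.0 bp per covered Mb (exact sign-flip permutation p = 0.125 each, the smallest possible, adjusted p = 0.167). With a minimum score of 100 the Tal1 difference was 36.2 (exact sign-flip permutation p = 0.25), so not all lines then moved one way. Replicate 2 was higher in all 4 lines in 23.6% of the tiles with a peak in every list. The ratio of the means was 1.62 at both windows, against a tile median of 0.935, and 86.8% of tiles had a lower ratio than Hba.

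At the Kdr and Cdh5 windows the lines went both ways in the lists as deposited. Kdr relative coverage was 80.2, 114, 112 and 83.5 in replicate 2, against 67.1, 117, 82.3 and 129 in replicate 1, and the groups overlapped. Its mean difference was -1.47 bp per covered Mb (exact sign-flip permutation p = 0.875, two-sided, n = 4 lines). The value at Kdr depended on the lists used. It was 13.1 without hs1603 KO. All 4 lines were higher in replicate 2 with a minimum score of 100, by a mean of 39.7, and all 4 were lower with lists of equal length, at a mean difference of -56.9 (exact sign-flip permutation p = 0.125 each). Cdh5 relative coverage was 91.3, 96.6, 112 and 117 in replicate 2, against 146, 132, 88.8 and 121 in replicate 1. Its mean difference was -17.6 (exact sign-flip permutation p = 0.375, two-sided, n = 4 lines). With a minimum score of 100 all 4 lines were lower in replicate 2, at a mean difference of -41.5 (exact sign-flip permutation p = 0.125), and the difference was -5.20 without hs1262 KO and -31.1 without hs1586 KO. Whether the Kdr and Cdh5 windows differ from the Tal1 and Hba windows in this respect was not tested.

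The percentile of the strongest peak, a comparison added after the data were seen, was also higher in replicate 2 at the Hba and Tal1 windows. In the Hba window it was 96.7, 99.9, 96.5 and 93.8 in replicate 2, against 66.2, 80.5, 71.2 and 74.1 in replicate 1. In the Tal1 window it was 96.7, 96.9, 96.5 and 96.9 in replicate 2, against 80.01, 90.5, 90.5 and 37.6 in replicate 1. At both windows replicate 2 was higher in all 4 lines, as it was in 40.3% of the tiles with a peak in every list. The mean differences were 23.7 and 22.1 percentile points (exact sign-flip permutation p = 0.125 each, adjusted p = 0.25 over 4 tests). Without hs1603 KO the Tal1 difference was 9.64 points.

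In the Cdh5 window the strongest peak averaged 97.5 ± 1.65 in replicate 2 and 97.6 ± 0.286 in replicate 1, and in the Kdr window 63.1 ± 5.66 in replicate 2 and 53.9 ± 15.0 in replicate 1 (SD, n = 4). The exact sign-flip permutation p was 1 for Cdh5 and 0.25 for Kdr, and the Kdr difference of 9.13 was 2.58 without hs1262 KO. These ranks come from lists of unlike length, with 54375 to 58753 peaks in replicate 2 and 26550 to 32472 in replicate 1. With lists of equal length the Kdr difference turned to -29.3, lower in replicate 2 in all 4 lines (exact sign-flip permutation p = 0.125), while the Hba and Tal1 differences were 21.8 and 19.4. Several replicate 2 peaks share 1 percentile because they tie at the score of 3100. The number of peaks per list and of ties at 3100 moved with the set, as given at the outset, and their part in these differences was not tested. With every list shortened to its 26550 highest-scoring peaks, replicate 2 covered more than replicate 1 at Hba, by 18.9 kb, and at Tal1, by 4.03 kb. With these lists the covered length differed by -4.36 kb at Kdr (exact sign-flip permutation p = 0.25). At Cdh5 it differed by -0.953 kb (exact sign-flip permutation p = 0.625). Both signs were the reverse of those in the lists as deposited.

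**Figure D4:**
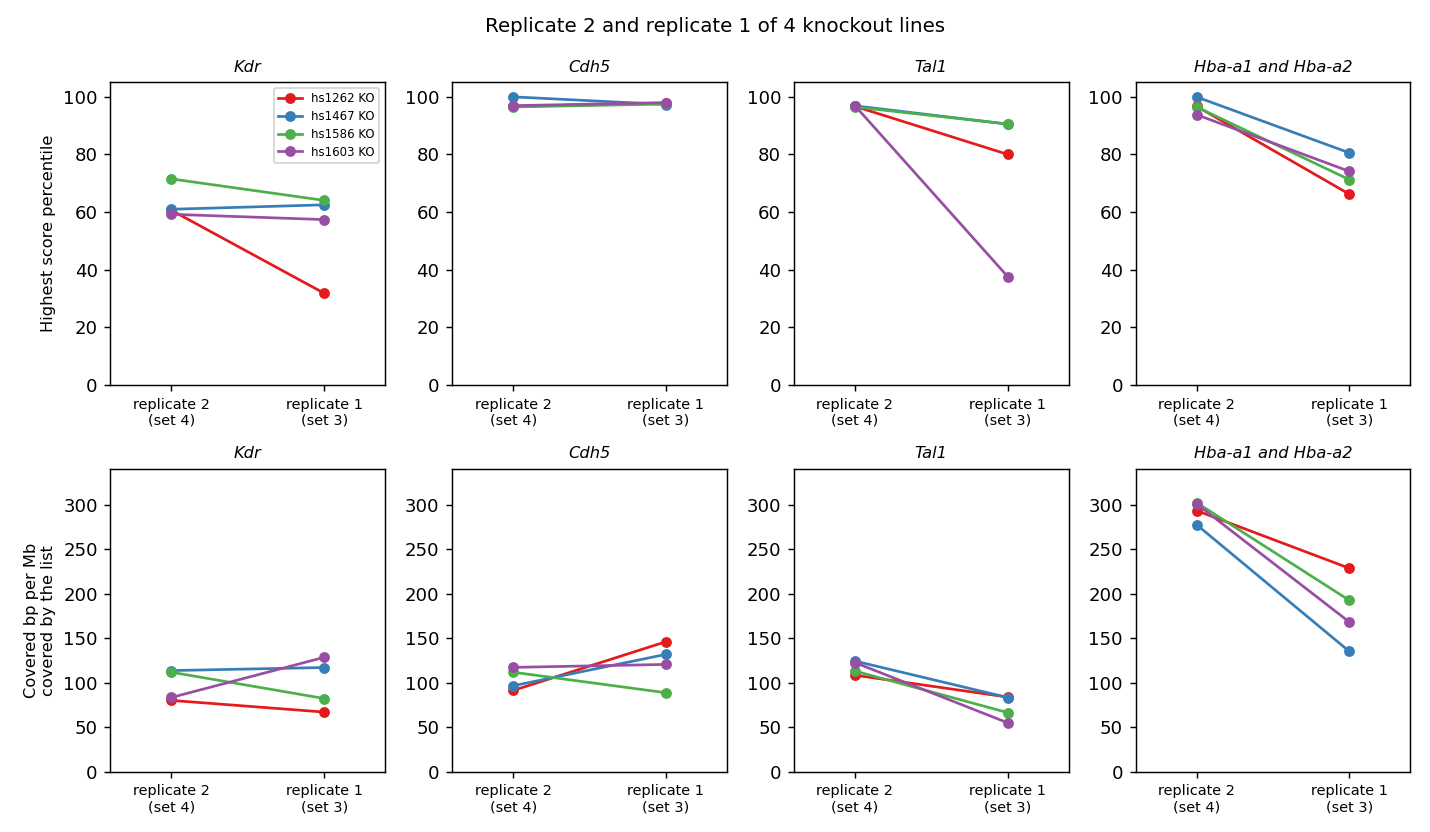
Highest score percentile (upper row, y axis 0 to 100) and relative coverage (lower row, covered bp per Mb covered by the list) of each window in replicate 2 (set 4, left) and replicate 1 (set 3, right) of 4 KO lines, 1 coloured line per KO line. All 4 lines slope down to replicate 1 in both rows for Tal1 and Hba, and do not all slope one way for Kdr and Cdh5.

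The mm1179 KO libraries could be set against WT in both set 1 and set 2, to ask whether the vessel and blood windows differ where a limb enhancer is absent. Over 3 measures and 4 windows none of the 12 differences passed an adjusted p of 0.05, and 0 had an unadjusted p under 0.05, in exact two-sided permutation tests over 70 arrangements, whose smallest p is 0.0286. The Hba window covered 24.8 ± 3.97 kb in mm1179 KO and 28.4 ± 6.83 kb in WT (SD, n = 4 each, difference -3.59 kb, exact permutation p = 0.371). The Tal1 window covered 8.28 ± 1.92 kb in mm1179 KO and 8.73 ± 3.19 kb in WT (SD, n = 4 each, difference -0.46 kb, exact permutation p = 0.829). At these windows the libraries of the genotypes overlapped. For Cdh5 the means were 10.1 ± 4.00 kb in mm1179 KO and 8.19 ± 0.907 kb in WT (SD, n = 4 each, difference 1.89 kb, exact permutation p = 0.429). For Kdr they were 4.55 ± 3.55 kb in mm1179 KO and 4.46 ± 2.11 kb in WT (SD, n = 4 each, difference 0.0958 kb, exact permutation p = 1). The sign at Kdr turned with a minimum score of 100, to -0.81 kb, and with lists of equal length, to -0.62 kb. Single libraries moved these differences. At Cdh5 the difference was 0.335 kb without mm1179 KO replicate 4 and 3.41 kb without mm1179 KO replicate 2, and at Hba it was -6.07 kb without WT replicate 3 and -1.22 kb without WT replicate 4. At Kdr and Tal1 leaving out 1 library turned the sign.

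The largest of these differences in rank was at Kdr. The strongest peak of the Kdr window ranked 20.6, 14.3, 38.5 and 52.3 in mm1179 KO, against 49.1, 50.2, 52.6 and 55.8 in WT. The groups overlapped in mm1179 KO replicate 4, and the means were 31.4 ± 17.3 in mm1179 KO and 51.9 ± 2.94 in WT (SD, n = 4 each, difference -20.5, exact permutation p = 0.0857, adjusted p = 0.514). Within set 1 the difference was -32.2 and within set 2 it was -8.80, each with an exact permutation p of 0.333, the smallest that 2 against 2 libraries can give. With arrangements kept within sets the exact permutation p was 0.0556, the smallest possible there (adjusted p = 0.667). With lists of equal length the difference was -21.0 (exact permutation p = 0.0286, adjusted p = 0.229). With a minimum score of 100 it was -9.95 (exact permutation p = 0.229, adjusted p = 0.549). A window with no peak counted as 0 in this measure. The highest Kdr scores in mm1179 KO replicates 1 to 3 were 59.3, 49.9 and 99.9, so these lists had no Kdr peak at that cut. In the 4 WT lists the highest scores were 122 to 152, so each kept a peak.

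In the Tal1 window the strongest peak ranked 94.0, 94.3, 96.4 and 95.6 in mm1179 KO, against 97.0, 96.7, 96.2 and 96.5 in WT. The mean difference was -1.53 (exact permutation p = 0.0571, adjusted p = 0.514). The difference was -2.71 within set 1 and -0.35 within set 2. The Hba covered length differed by -3.79 kb within set 1 and by -3.39 kb within set 2, and libraries of both genotypes overlapped in each set. The other covered lengths had opposite signs in the sets. The difference was -1.20 kb in set 1 and 1.396 kb in set 2 at Kdr, -0.66 and 4.45 kb at Cdh5, and -1.94 and 1.03 kb at Tal1. The Hba percentile differed by -2.41 in set 1 and 1.57 in set 2, and the Cdh5 percentile by 2.89 and -0.55. These misses of the threshold do not show that the genotypes are alike.

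Region by region, 1 of the 32 regions separated the genotypes completely. The 2037 bp region chr11:32117656-32119692 in the Hba window was called in none of the 4 mm1179 KO lists and in all 4 WT lists, in which the peaks there ranked 41.8, 32.4, 30.8 and 47.0. Its Fisher exact p was 0.0286, two-sided, and 1 after Benjamini-Hochberg adjustment over 54583 regions. Such regions made up 0.0769% of those tested, and the reverse pattern, called in mm1179 KO only, 0.0348%, with none among the 32. The smallest p that 4 against 4 lists can give is 0.0286. After adjustment over 54583 regions it could pass only if most regions separated the genotypes completely. No region of the genome passed the adjusted threshold, which therefore decides nothing, and 61 had an unadjusted Fisher exact p under 0.05.

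The mm1179 KO lists were not bare beside this region. Their nearest peaks lay 917, 924, 785 and 791 bp away, with percentiles of 68.8, 74.9, 47.3 and 61.1. Outside these genotypes the region was called in hs72 KO replicate 2 and in all 4 lists of set 4, and missed in hs72 KO replicate 1 and all of set 3. With a minimum score of 100 for every peak, no region of the windows was called in all WT and no mm1179 KO lists.

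The hs72 KO libraries were set against the 2 WT libraries of their own set. Covered length averaged 6.57 kb in hs72 KO and 6.03 kb in WT at Kdr, and 9.31 kb in hs72 KO and 8.77 kb in WT at Cdh5. At Tal1 it averaged 6.30 kb in hs72 KO and 8.46 kb in WT, and at Hba 22.5 kb in hs72 KO and 28.2 kb in WT. The exact permutation p was 0.667 for Kdr and Hba and 1 for Cdh5 and Tal1, and 2 against 2 libraries cannot give less than 0.333. Against WT, hs1262 KO, hs1467 KO, hs1586 KO and hs1603 KO were not compared, since no WT library shares their sets.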

How the data were processed

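The deposited files are 18 H3K27ac peak lists, 1 per library, and the score in each list is the authors' own value per peak, from 40 upwards. The build was mm9 and the tools, per the submitters' processing notes, included MACS 1.4.2, Bowtie 0.12.8, cutadapt 1.1, bcl2fastq 2.17 and CASAVA. Per the labels' protocols nuclei were crosslinked with formaldehyde and sonicated before precipitation. The 18 input samples were not used here, and whether they served as controls in peak calling is not given in the sources used here. No read counts are in the lists, so the depth is unknown and counting intervals were not computed.

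Peaks were clipped to each window for covered length. Relative coverage was the covered length in bp per Mb covered by the whole list, and scores were turned into mid-rank percentiles within a list, with ties sharing a rank. A library called a region where any of its peaks shared 1 bp or more with it. The labels gave the groups and the replicate numbers. Libraries are of pooled tissue, and nothing says that the pools came from separate litters, so p-values measure only the spread between libraries. Means were set against each other by exact permutation tests, two-sided (70 arrangements for mm1179 KO against WT, 6 for hs72 KO, 16 sign flips over 4 lines) and calls by a two-sided Fisher exact test, each family being adjusted by the Benjamini-Hochberg method (12, 4, 8 and, for an added measure, 4 tests; 54583 regions for Fisher's test). Scripts were tested on simulated data.

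Regions named were those called in all 18 lists, the widest and the highest-ranking of each window, and those separating mm1179 KO from WT, plus 2 Hba regions chosen after their values were seen. The windows, lists and tests were chosen with earlier results of these data known. Alternatives were a minimum score of 100, lists shortened to 26550 peaks, windows narrowed by 25 kb on each side, at least 50% of a region covered, a replicate block, arrangements kept within sets, leaving out each library or line and, chosen after seeing the data, leaving out set 3. A planned list of other vessel and blood genes was not run, because it needed an mm9 annotation. Figures were drawn with matplotlib 3.10.9, and values computed with scipy 1.17.1, numpy 2.4.6 and Python 3.11.15.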

Additional observations from a re-analysis of the deposited data

Results flagged for a closer look

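A single library stood far from the others of its group. The Tal1 window of mm1179 KO replicate 1 had a relative coverage of 104.9 bp per covered Mb, where the other mm1179 KO libraries lay between 89.0 and 90.7. Its gap to the nearest of them was 0.893 of the range of the group, above Dixon's critical value of 0.829 for 4 libraries. It was the only value past that limit among 24 groups examined, and chance passes it in about 1 in 20 groups. In WT the same measure ran between 61.9 and 143.3, a wider range than in mm1179 KO.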

How the results depend on the processing

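Of 345 alternative values, 295 kept their direction and their side of the threshold, 34 turned and 16 moved. None of the 16 was a test that crossed the threshold, since no test passed it under any alternative. The hs72 KO tests, the tests of replicate 2 against 1, the replicate block and the arrangements within sets could not give a p under 0.05. The lowest adjusted p was 0.229 for mm1179 KO (lowest exact permutation p 0.0286), 0.667 for hs72 KO and 0.143 for replicate 2 against 1. With a minimum score of 100, Kdr covered length in mm1179 KO minus WT was -0.81 kb, and in replicate 2 minus 1 Kdr relative coverage was 39.7, Cdh5 relative coverage -41.5 and the Cdh5 percentile 1.00. The median Kdr covered length fell to 1.98 kb, consensus regions numbered 3 at Kdr, 3 at Cdh5 and 5 at Tal1, those in all 18 lists 1 at Cdh5, 0 at Tal1 and 0 at Hba, and those of WT but not mm1179 KO 0. With lists of equal length, mm1179 KO minus WT was -0.62 kb for Kdr covered length and 0.20 for the Hba percentile. Replicate 2 minus 1 was -4.36 kb at Kdr, -0.953 kb at Cdh5, -56.9 for Kdr relative coverage and -29.3 for the Kdr percentile, regions numbered 5 at Kdr and 4 at Tal1, and those in all 18 lists 1 at Cdh5 and 0 at Hba. Requiring 50% of a region covered left 0 shared regions at Cdh5 and 0 at Hba, and leaving out set 3 gave 2 at Tal1 and 4 at Hba and turned the mean percentile of Hba region 6 minus region 3 to -3.69. Without hs1603 KO, Kdr relative coverage in replicate 2 minus 1 was 13.1, and the Cdh5 percentile difference was 0.187, 0.189 and 0.199 without hs1262 KO, hs1586 KO and hs1603 KO. Leaving out 1 library at a time, mm1179 KO minus WT ran from -1.35 to 1.22 kb for Kdr covered length, -14.7 to 4.65 for Kdr relative coverage, 0.335 to 3.41 kb for Cdh5 covered length, -0.337 to 2.24 for the Cdh5 percentile, -1.69 to 0.59 kb and -20.9 to 6.20 for Tal1 covered length and relative coverage, and -6.07 to -1.22 kb, -63.7 to -5.48 and -1.31 to 0.654 for Hba covered length, relative coverage and percentile. Fisher's exact test then gave an unadjusted p under 0.05 at 134 to 221 regions of the genome, where 3 against 4 lists are compared, and an adjusted one at 0. So few lists cannot readily give an adjusted p under 0.05 over so many regions. The hs72 KO differences ran from -0.292 to 1.38 kb at Kdr, -0.934 to 2.01 at Cdh5, -5.58 to 1.26 at Tal1 and -13.0 to 1.53 at Hba. The replicate block left the Kdr percentile difference at -20.5 (exact permutation p = 0.125) and changed no call, and the deviations of same-numbered libraries correlated by 0.0139 to 0.0953, so the numbers were not taken as pairs. The causes of these shifts were not tested, and unknown depth limits every missing call.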
